A study of Mus musculus with 9 samples.

Results

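The genes described here are 8 genes of prostaglandin synthesis, breakdown, transport and response, Ptgs1, Ptgs2, Ptgds, Ptgis, Ptges, Hpgd, Slco2a1 and Ptger3, out of 46517 gene rows. They were named by symbol and followed over the 9 cell type labels of single cells from microvascular fragments of adult mouse brain. The fragments were digested to single cells, which were sorted into multiwell plates and read with Smart-seq2, a method that covers whole transcripts and carries no molecular identifiers. The labels are not spelled out in the sources used here, and held 137 MG, 45 vEC, 116 aEC, 17 CP-EC, 787 capilEC, 9 FB, 41 aSMC, 29 vSMC and 54 PC cells. No strain, sex, treatment or genotype is given, and tissue dissociation was common to all cells. Each label was deposited as 1 sample with no animals named, so types had no replicates and no test between types could be made.

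Prostaglandins are lipid signals made where they act. Phospholipases release arachidonic acid, the cyclooxygenases encoded by Ptgs1 and Ptgs2 turn it into prostaglandin H2, and terminal synthases make prostaglandin D2, E2, prostacyclin or thromboxane from that. The products leave through transporters, act on G protein-coupled receptors, and are taken up and oxidised. In brain, prostaglandin E2 made by cells of the blood vessel wall is known as a mediator of fever, and prostacyclin and thromboxane set vessel tone.

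The 1235 cells held 100021 to 854836 reads each. Their names start with 4 prefixes, which are taken here as plates, though the sources used here do not explain them. Reads summed over a type ranged over 2556671 in FB to 172998640 in capilEC. Levels are given as counts per 1000000 reads of the type (CPM) with exact Poisson 95% intervals, which cover counting error only, since PCR copies are not independent molecules. The labels were checked against marker lists. The 9 endothelial markers summed to 10248 to 15032 CPM in vEC, aEC, CP-EC and capilEC, against 3806 CPM or less in the other labels. The 6 microglia markers summed to 22560 CPM in MG, against 515 CPM or less elsewhere, and the 6 fibroblast markers to 9782 CPM in FB, against 630 CPM or less elsewhere. The 5 fenestrated endothelial markers summed to 7622 CPM in CP-EC, against 1047 CPM or less elsewhere. The 5 pericyte markers summed to 12342 CPM in PC, 6213 in vSMC and 4765 in FB. The 5 smooth muscle markers summed to 15511 CPM in aSMC, 7049 in vSMC and 675 in PC. The 7 venous markers summed to 5786 CPM in vEC, against 1546 CPM or less elsewhere. The 8 arterial endothelial markers did not single out aEC, with 1667 CPM there, 2448 in vSMC, 1791 in aSMC and 1683 in PC. PC and vSMC also carried 3806 and 3130 CPM of endothelial markers. The part of this RNA in levels of the prostanoid genes was not tested, except by leaving such cells out.

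The 8 genes peaked in 5 of the 9 labels. Ptgs1 and Hpgd were highest in MG, Ptgs2 and Slco2a1 in vEC, Ptgds and Ptges in FB, Ptgis in aSMC and Ptger3 in vSMC. None of the 8 was highest in capilEC, the label with the most cells. To compare types, a gene met the size rule where the higher group had at least 50 CPM, a read in at least 50% of its cells, and a level at least 4-fold that of the lower group, on log2(CPM + 5).

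**Figure D1:**
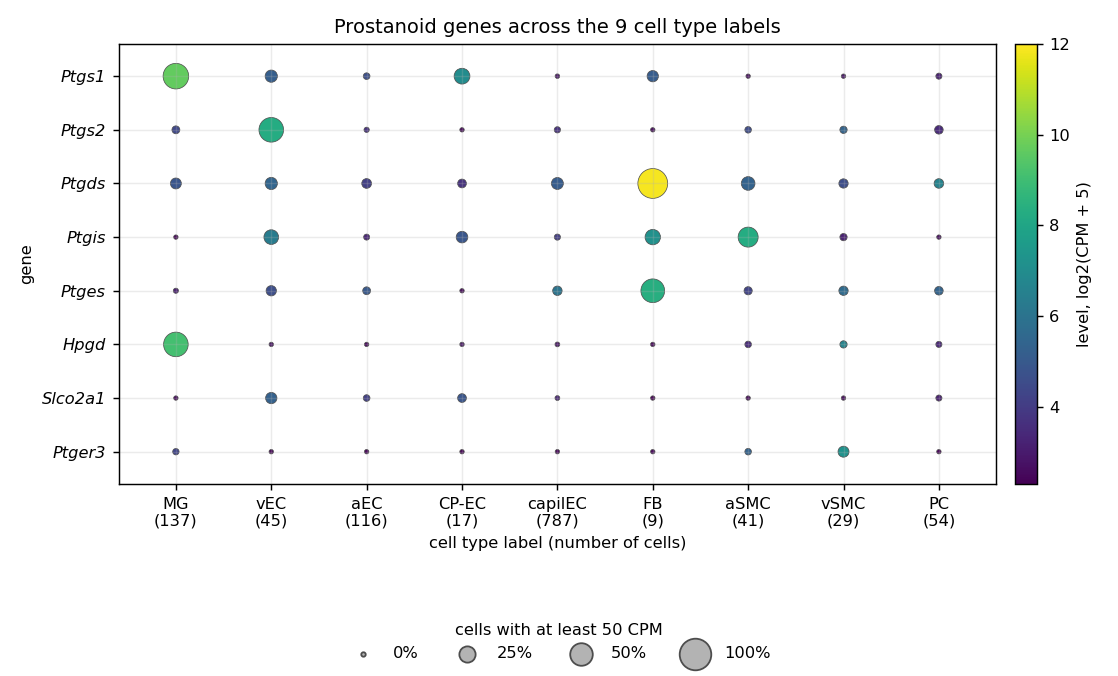
Level of the 8 genes (rows) in the 9 labels (columns, with the number of cells); the colour is log2(CPM + 5) of the summed reads and the dot area grows with the percentage of cells with at least 50 CPM. The 6 brightest dots are Ptgds in FB at 3759 CPM, Ptgs1 and Hpgd in MG at 816 and 544 CPM, Ptges in FB at 333 CPM, Ptgis in aSMC at 303 CPM and Ptgs2 in vEC at 302 CPM.

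Of the 8 genes, 2 met the size rule upward in MG against the mean of aEC, capilEC and vEC, Ptgs1 and Hpgd. In that comparison 2.19% of 12541 genes over 5 CPM met it upward and 5.92% in either direction. In vEC against capilEC 1 gene met it, Ptgs2, where 0.296% of 11820 genes did so upward and 0.508% in either direction. In FB against the mural mean (PC, aSMC and vSMC), 2 genes met it, Ptgds and Ptges, where 1.71% of 12367 genes did so upward and 4.49% in either direction. The other 5 comparisons held 0 of the 8. There the rule was met in either direction by 0.243% of genes in aEC against capilEC, 2.21% in CP-EC against capilEC and 2.91% in the endothelial mean against the mural mean. In aSMC and vSMC against PC it was met by 2.48% and 0.677% of genes.

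The median log2 difference of the members over 5 CPM is given for description, beside that of all genes over 5 CPM. It was 2.12 for 6 members in vEC against capilEC, beside 0.07 for all genes. Of these 6, Ptgs1 and Slco2a1 passed 5 CPM in vEC alone. Hpgd (log2 -0.04) and Ptger3 (0.002) were left out, so this median leans to vEC by its filter. In vSMC against PC the median was 1.93 for 5 members, beside -0.09. That median was the value of Ptgs2, with 98.7% of its vSMC reads in 1 cell and 0.525 CPM without that cell. Hpgd and Ptger3 passed 5 CPM in vSMC alone. Ptgs1 (log2 -0.30), Ptgis (0.60) and Slco2a1 (-0.52) were left out, so this median leans to vSMC by its filter. The median was -1.01 for 8 members in MG against the endothelial mean, beside -0.26. In FB against the mural mean it was 0.41 for 7 members, beside -0.62. In the remaining comparisons it was -0.40 to 0.62, beside -0.38 to 0.03.

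The cyclooxygenases come first. Ptgs1, the constitutive cyclooxygenase (COX-1), had 816 CPM in MG (807 to 826), against 120.0 CPM in CP-EC, 30.5 in vEC, 29.3 in FB, 20.1 in aEC, 3.92 in PC, 2.22 in vSMC, 1.87 in capilEC and 1.03 in aSMC. MG thus stood above every other label by at least 2.72 log2 units. The intervals of vEC and FB overlapped, and so did those of neighbours from PC down to aSMC. Against the endothelial mean of 17.5 CPM the log2 difference was 5.19, with the same direction on 4 of 4 plates (3.33 to 5.90).

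Within MG, Ptgs1 reached 50 CPM in 89 of 137 cells (65.0%, exact binomial 95% interval 56.4 to 72.9%), against 1 of 787 capilEC cells. These 89 cells held 99.8% of the MG reads of the gene and had a median of 1136 CPM. After thinning each cell to 100000 reads, 77.4% of MG cells and 18.4% of capilEC cells had a read. The capilEC reads were thus thinly spread, with at most 53.2 CPM in a cell. Plate levels in MG were 955, 776, 805 and 637 CPM.

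Outside MG the gene rested on few cells. In CP-EC, 4 of 17 cells reached 50 CPM, and 1 of them held 64.2% of the reads. Without that cell the level was 44.5 CPM. That cell carried 443 CPM of microglia markers and 15397 CPM of endothelial markers. In aEC 1 cell held 63.3% of the reads, and without it the level was 7.41 CPM. Its microglia markers summed to 113 CPM. Of the cells with at least 50 CPM, 1 of 4 in CP-EC, 1 of 3 in aEC and 0 of 6 in vEC had microglia markers above 10% of the MG median. So did the 1 such capilEC cell, with 4043 CPM of these markers.

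Ptgs1 lies at chr2:36230426-36252272 on the plus strand (GRCm38, GENCODE M21), and 148 of its 3884 exonic bases overlap Gm43621 on the opposite strand. Promoters were taken from RefSeq (GRCm38.p6), from 250 bases before to 50 after the RefSeq start. Of the 8 genes 7 had one, and Ptgis had none. RefSeq starts can differ from the GENCODE starts printed here. The word GAGGAAGT, a form of the purine-rich element bound by the myeloid factor PU.1, was searched on both strands. It occurs in 3.28% of 27025 promoters. It was found once in the promoter of Ptgs1, 24 bases before the start. It was also found once in that of Hpgds, the hematopoietic prostaglandin D synthase, 49 bases before its RefSeq start. The GENCODE start of Hpgds, at chr6:65144908, lies upstream of the word. Both genes were highest in MG, and their promoters are shown with the word in capitals. The windows are chr2:36230176-36230475, plus strand, for Ptgs1 and chr6:65144681-65144980, minus strand, for Hpgds.
Ptgs1: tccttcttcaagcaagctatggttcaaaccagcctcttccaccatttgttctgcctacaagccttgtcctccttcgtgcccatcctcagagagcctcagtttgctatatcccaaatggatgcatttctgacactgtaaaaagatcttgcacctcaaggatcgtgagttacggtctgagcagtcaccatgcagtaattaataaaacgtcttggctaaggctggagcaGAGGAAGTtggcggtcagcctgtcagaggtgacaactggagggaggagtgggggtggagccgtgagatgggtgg
Hpgds: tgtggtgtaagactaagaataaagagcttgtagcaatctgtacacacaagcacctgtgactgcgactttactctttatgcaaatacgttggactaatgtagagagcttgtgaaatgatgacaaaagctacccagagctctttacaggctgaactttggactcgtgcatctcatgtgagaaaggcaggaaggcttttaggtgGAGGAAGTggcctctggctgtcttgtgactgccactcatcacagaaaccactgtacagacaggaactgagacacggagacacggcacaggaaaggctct
The word overlapped none of the other words searched in either promoter. Hpgd and Tbxas1, also highest in MG, held no copy in their windows.

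Ptgs2, the inducible cyclooxygenase (COX-2), was highest in vEC. It had 302 CPM in vEC (293 to 311), against 36.2 CPM in vSMC, 18.1 in aSMC, 16.0 in MG, 7.67 in aEC, 7.50 in capilEC, 5.79 in PC, 0.782 in FB and 0.604 in CP-EC. The intervals of aSMC and MG overlapped, as did those of aEC, capilEC and PC, and of FB and CP-EC. The log2 difference from capilEC was 4.62, and 3.69 to 5.34 on the 4 plates. On the plates vEC held 228 to 369 CPM, against 2.33 to 13.1 CPM in capilEC, with no overlap.

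Within vEC the gene reached 50 CPM in 27 of 45 cells (60.0%, 44.3 to 74.3%), with a median of 375 CPM in those cells. Only 1 further vEC cell had a read. In capilEC 16 of 787 cells reached 50 CPM (2.03%, 1.17 to 3.28%). These 16 cells held 92.1% of the capilEC reads, and 1 of them 27.4%. Their venous marker list had a median of 1422 CPM per cell, against 626 CPM in the other capilEC cells.

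The level in the next labels rested on single cells. In vSMC 1 cell held 98.7% of the reads, in aSMC 1 cell held 97.6% and in aEC 1 cell held 98.3%. Without those cells the levels were 0.525, 0.439 and 0.130 CPM. The vSMC cell carried 7708 CPM of endothelial markers beside 2932 CPM of mural markers. The aSMC cell carried 459 CPM of endothelial markers and 2661 CPM of mural markers. In MG 6 cells reached 50 CPM, and 3 of them had microglia markers above 10% of the MG median.

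The 27 vEC cells high in Ptgs2 were set beside the other 18, as a description. Pla2g4a, cytosolic phospholipase A2, which releases arachidonic acid, reached 50 CPM in 21 of the 27 (77.8%) and in 27.8% of the other 18. Abcc4, an exporter of prostaglandins, did so in 77.8% and 38.9%. All 6 vEC cells high in Ptgs1 and 8 of the 9 high in Ptgis were among the 27. Median reads per cell were 332774 in the 27 and 165120 in the 18. The 11 immediate early genes summed to a median of 5298 CPM and 2975 CPM, the endothelial markers to 9875 CPM and 13773 CPM, and the venous markers to 6243 CPM and 7656 CPM. On plate s169s 5 of 14 vEC cells were high in Ptgs2 and 4 in Abcc4. Abcc4 had 133 CPM in vEC there, against 500 to 752 CPM on the other plates. The part of plate, depth and immediate early genes in these shares was not tested. Across labels the immediate early list was highest in MG (26762 CPM) and aSMC (17770 CPM), where Ptgs2 had 16.0 and 18.1 CPM, and stood at 5801 CPM in vEC.

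**Figure D2:**
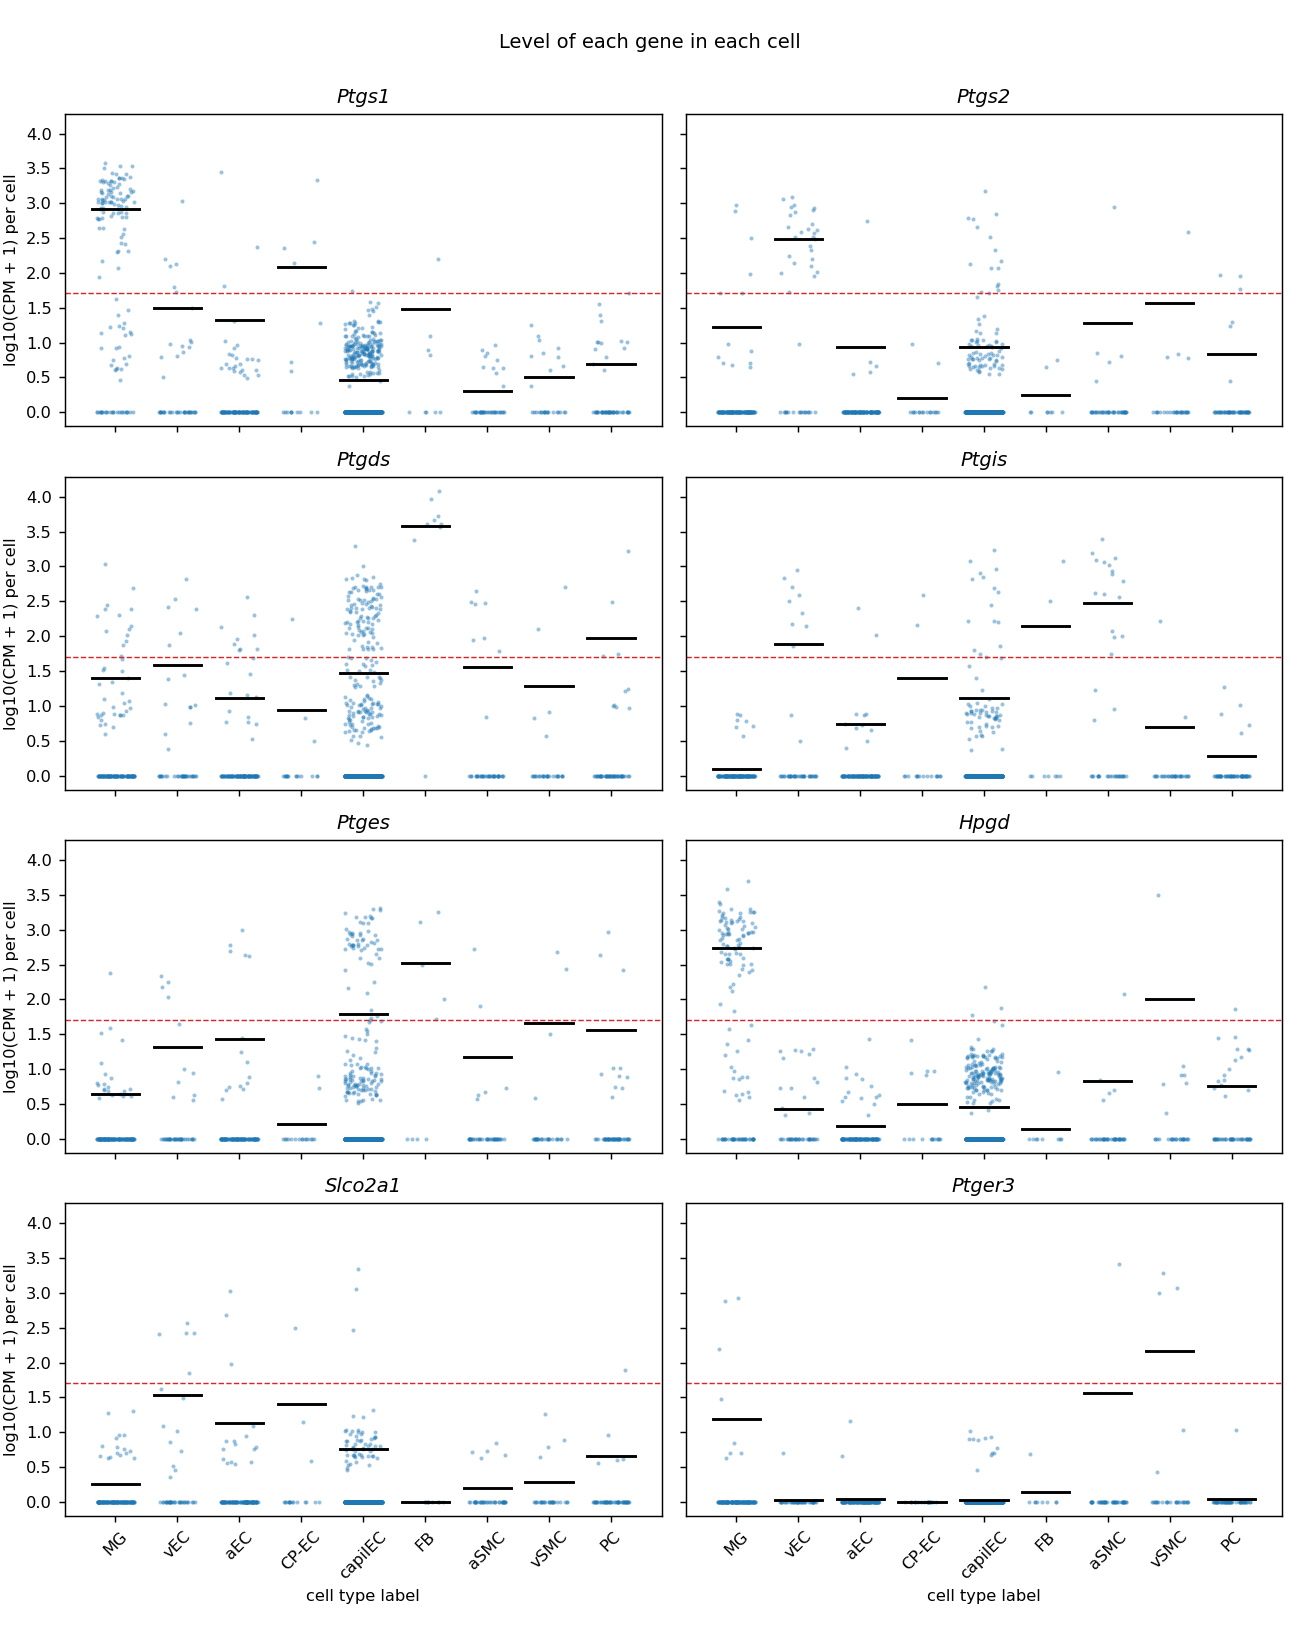
Level of each of the 8 genes in every cell, as log10(CPM + 1), by label; points are cells, black bars the CPM of the summed reads and the dashed line 50 CPM. Cells above the line number 89 of 137 for Ptgs1 and 82 of 137 for Hpgd in MG, 27 of 45 for Ptgs2 in vEC, 8 of 9 for Ptgds and 5 of 9 for Ptges in FB, 16 of 41 for Ptgis in aSMC, 5 of 45 for Slco2a1 in vEC and 3 of 29 for Ptger3 in vSMC.

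Ptgs2 lies at chr1:150100031-150108227 on the plus strand. Its promoter, chr1:150099781-150100080, plus strand, is shown because Ptgs2 is the member with the clearest difference among endothelial labels. Capitals mark ACGTCA, the reverse complement of the cyclic AMP response word TGACGT, and CACGTG, the E-box word. The words start 12 and 16 bases after the RefSeq start and overlap each other.
Ptgs2: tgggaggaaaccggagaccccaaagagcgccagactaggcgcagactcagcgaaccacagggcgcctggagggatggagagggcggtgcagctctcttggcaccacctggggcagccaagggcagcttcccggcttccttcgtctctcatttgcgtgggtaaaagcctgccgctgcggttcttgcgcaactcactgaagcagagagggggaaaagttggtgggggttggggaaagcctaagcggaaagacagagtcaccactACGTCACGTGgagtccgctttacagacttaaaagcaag
TGACGT was present, on either strand, in 7.64% of 27025 promoters and CACGTG in 7.24%. Pla2g4a is the nearest protein-coding gene on the upstream side and runs the other way, at chr1:149829618-149961290 on the minus strand. A gap of 138.74 kb with 0 protein-coding genes lies between the pair, and both were highest in vEC.

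The synthases follow. Ptgds encodes lipocalin-type prostaglandin D synthase, known in brain from meninges, choroid plexus and oligodendrocytes, at chr2:25466709-25470046 on the minus strand. It had 3759 CPM in FB (3684 to 3835), against 94.2 CPM in PC, 37.6 in vEC, 34.9 in aSMC, 28.7 in capilEC, 24.1 in MG, 18.4 in vSMC, 12.1 in aEC and 7.86 in CP-EC. FB stood 5.25 log2 units above PC, the next label. The 9 FB cells held 12114, 9274, 5380, 4718, 4040, 4033, 3649, 2411 and 0 CPM. So 8 of the 9 were high (88.9%, 51.8 to 99.7%) and above every cell of the other labels. The log2 difference from the mural mean of 49.2 CPM was 6.12. No plate held 5 FB cells, so no plate value is given.

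The 6 meningeal fibroblast markers summed to 6595 CPM in FB, against 83.9 CPM or less in the other labels. The 6 oligodendrocyte markers summed to 231 CPM in FB, with Mbp, Mog, Mag and Ermn at 0, and the choroid plexus epithelial markers to 905 CPM. In PC 1 cell on plate s482s held 90.3% of the Ptgds reads. That cell carried 16258 CPM of choroid plexus epithelial markers and 21.8 CPM of mural markers, and without it PC had 9.65 CPM. In MG the cell with the most Ptgds reads carried 8357 CPM of perivascular macrophage markers beside 5597 CPM of microglia markers.

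Outside FB, Ptgds moved with the plate. In capilEC it had 90.5 CPM on plate s169s, against 5.09 to 16.9 CPM on the other 3 plates. Of the 99 capilEC cells with at least 50 CPM, 70 were on s169s. The same plate was highest in MG (53.7 CPM), aEC (58.7), aSMC (153) and vSMC (80.7). In vEC it had 39.8 CPM, below the 81.1 CPM of s482s. In PC it had 48.0 CPM, against 177 CPM on s482s, 2.63 on s480s and 4.08 on s483s. Of the 923 PC reads on s482s, however, 910 were in the 1 cell with choroid plexus epithelial markers described above. Of the 9 FB cells 4 were on s169s as well. Cells of s169s had a median of 159000 reads, against 223295 to 238701 on the other plates, and the part of depth in these levels was not tested.

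Ptges, microsomal prostaglandin E synthase, lies at chr2:30889471-30929863 on the minus strand. It had 333 CPM in FB (311 to 356), against 60.9 CPM in capilEC, 45.6 in vSMC, 35.5 in PC, 26.3 in aEC, 19.4 in vEC, 13.8 in aSMC, 3.40 in MG and 0.604 in CP-EC. No neighbours in this order had overlapping intervals. The log2 difference of FB from the mural mean of 31.7 CPM was 3.20. It rested on 5 of the 9 cells, with 1789, 1298, 311, 100.5 and 51.8 CPM, while the other 4 had 0. Without the cell with the most reads FB had 174 CPM. That cell carried 7632 CPM of fibroblast markers, and also 2568 CPM of choroid plexus epithelial and 1445 CPM of oligodendrocyte markers. Immediate early genes summed to a median of 7992 CPM in the 5 cells and 758 CPM in the other 4, and median reads were 361354 and 214516. The part of these in the FB level was not tested.

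In capilEC Ptges came from a minority of strongly positive cells. It reached 50 CPM in 56 of 787 cells (7.12%, 5.42 to 9.14%), with a median of 655 CPM in them and 98.4% of the reads. Such cells were found on each plate, and plate levels were 44.9 to 82.7 CPM. Of the 56 cells 1 was also high in Ptgs2, and 8 were high in Pla2g4a. In vEC 2 of the 27 Ptgs2-high cells were high in Ptges, where independent calls would give 2.4 cells. In vSMC and PC 2 and 3 cells held 97.6% of the reads each.

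Ptgis encodes prostacyclin synthase, whose product relaxes smooth muscle and restrains platelets. It had 303 CPM in aSMC (293 to 313), against 138 CPM in FB, 75.1 in vEC, 24.5 in CP-EC, 11.8 in capilEC, 4.57 in aEC, 3.97 in vSMC, 0.934 in PC and 0.245 in MG. The intervals of aEC and vSMC overlapped, as did those of PC and MG. The log2 difference of aSMC from PC was 5.70, and 3.76 to 6.77 on 4 of 4 plates. The gene did not meet the size rule there, because 46.3% of aSMC cells had a read.

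Of the aSMC cells, 16 of 41 reached 50 CPM (39.0%, 24.2 to 55.5%), with a median of 699 CPM. Plate levels in aSMC were 88.9, 539, 83.8 and 358 CPM, against 0 to 1.54 CPM in PC. In vEC 9 of 45 cells reached 50 CPM, on 3 of the 4 plates, and the level was 0 CPM on s480s, which held 6 vEC cells. Against capilEC the log2 difference of vEC was 2.25, with a read in 24.4% of vEC cells. In FB 2 of 9 cells, with 1191 and 320 CPM, held all reads. The gene lies at chr2:167191805-167240604 on the minus strand, and 156 of its 2567 exonic bases overlap 1110018N20Rik on the opposite strand.

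**Figure D3:**
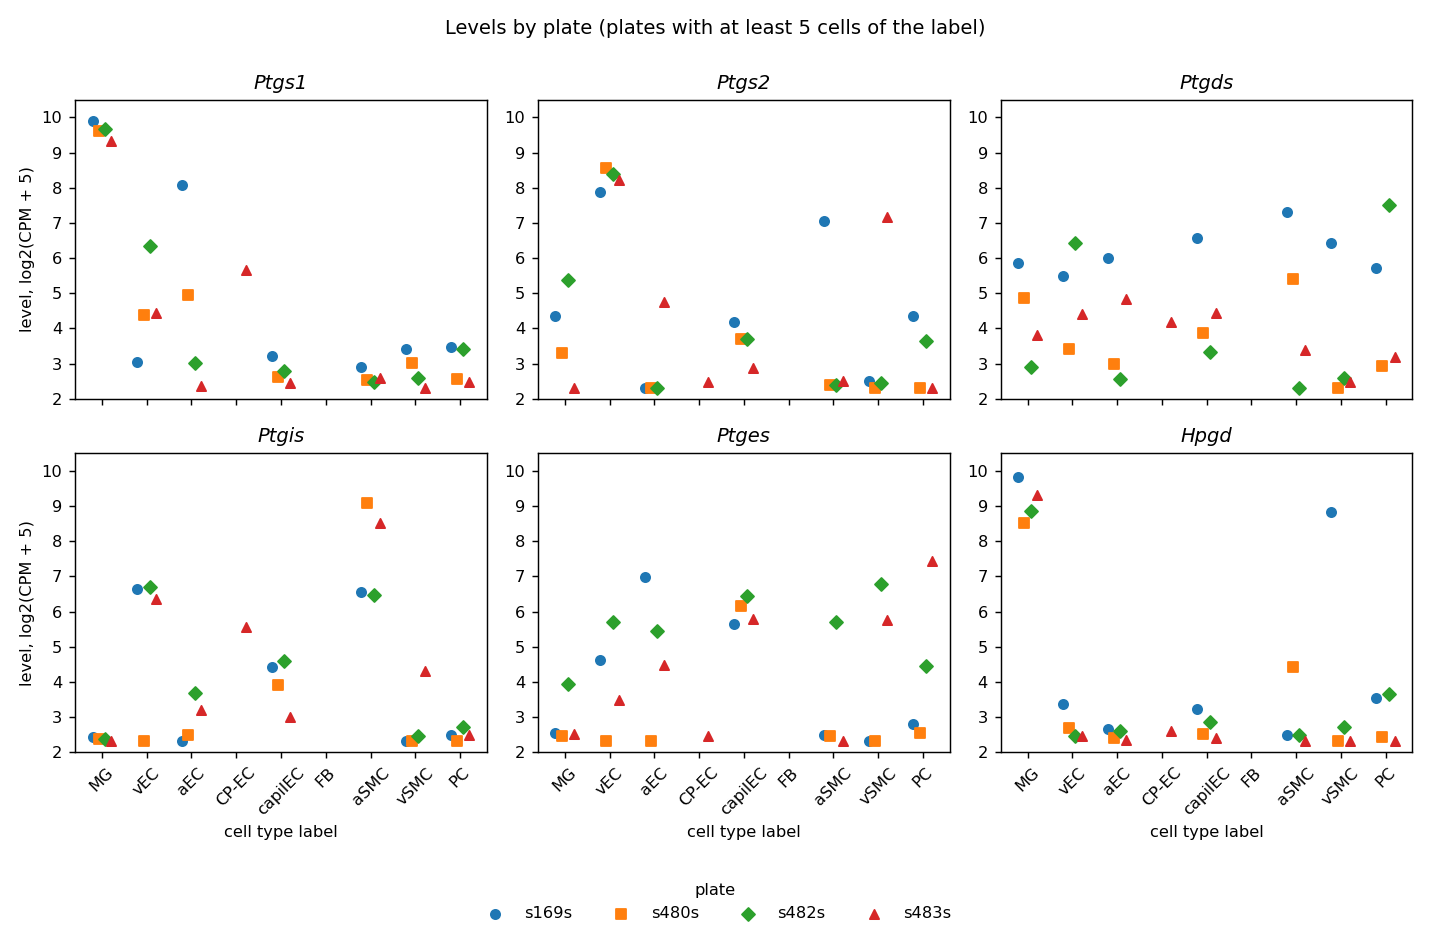
Level of 6 genes by label on each plate, as log2(CPM + 5), for plates with at least 5 cells of the label (no plate for FB, s483s alone for CP-EC). The 4 plates sit close together for Ptgs1 in MG (637 to 955 CPM) and Ptgs2 in vEC (228 to 369 CPM), while Ptgds is highest on s169s in MG, aEC, capilEC, aSMC and vSMC.

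Breakdown and uptake come next. Hpgd, the dehydrogenase that starts the oxidation of prostaglandins, had 544 CPM in MG (536 to 552), against 99.8 CPM in vSMC, 5.85 in aSMC, 4.77 in PC, 2.12 in CP-EC, 1.82 in capilEC, 1.63 in vEC, 0.543 in aEC and 0.391 in FB. The neighbours from aSMC down to vEC had overlapping intervals. Against the endothelial mean of 1.33 CPM the log2 difference of MG was 6.44, and 5.97 to 6.89 on 4 of 4 plates. It reached 50 CPM in 82 of 137 MG cells (59.9%, 51.1 to 68.1%), with a median of 860 CPM. On the plates MG held 908, 359, 456 and 628 CPM.

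The vSMC level was that of 1 cell on plate s169s with 3166 CPM, which held 99.0% of the reads. It carried 12495 CPM of mural markers, and also 1756 CPM of microglia, 1272 CPM of perivascular macrophage and 2845 CPM of fibroblast markers. Without it vSMC had 0.984 CPM. Ptgs1 and Hpgd were both at 50 CPM or more in 59 MG cells and both below it in 25, where independent calls would give 53.3 cells high in both. Hpgd was high in 66.3% of the Ptgs1-high MG cells, against 47.9% of the others.

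Hpgd lies at chr8:56294585-56321043 on the plus strand. Its promoter (chr8:56294302-56294601, plus strand) is shown as the MG member without the PU.1 word. Capitals mark its single TATAAA, 4 bases after the RefSeq start but before the GENCODE start given above. The word is present on either strand in 14.2% of promoters.
Hpgd: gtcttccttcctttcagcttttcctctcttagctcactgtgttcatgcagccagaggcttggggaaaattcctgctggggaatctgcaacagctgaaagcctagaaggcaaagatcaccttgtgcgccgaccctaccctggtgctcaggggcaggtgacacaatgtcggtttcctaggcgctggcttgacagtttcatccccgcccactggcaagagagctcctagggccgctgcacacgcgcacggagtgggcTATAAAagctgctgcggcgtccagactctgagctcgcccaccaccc
Slco2a1 also held 1 TATAAA, 29 bases before its RefSeq start. Among the members, the windows of Slco2a1 (chr9:103008237-103008536), Ptgds and Ptges lie inside the GENCODE genes, not at their GENCODE starts. The promoters of Ptgds, Ptges and Ptger3 held none of the 4 words searched, the TATA, E-box, cyclic AMP response and PU.1 words given here.

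Slco2a1, the prostaglandin transporter that brings prostaglandins into cells for oxidation, was low everywhere. It lies at chr9:102988712-103096002 on the plus strand, and n-R5s89 on the opposite strand overlaps 104 of its exonic bases. It had 33.4 CPM in vEC (30.4 to 36.5), 24.2 in CP-EC, 12.7 in aEC, 4.73 in capilEC, 3.55 in PC, 0.953 in vSMC, 0.797 in MG and 0.602 in aSMC. In FB there were 0 of 2556671 reads, which allows up to 1.17 CPM. The 4 highest labels were the 4 endothelial ones, but few cells carried it. It reached 50 CPM in 5 of 45 vEC cells, 1 of 17 CP-EC cells, 3 of 116 aEC cells and 3 of 787 capilEC cells. In vEC it had 0, 102, 44.8 and 14.9 CPM on the 4 plates. In aEC all 3 high cells were on s480s, and 1 held 59.0% of the reads. Uptake and oxidation genes were thus highest in different labels, Slco2a1 in vEC and Hpgd in MG, where Slco2a1 had 0.797 CPM.

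Ptger3 encodes the EP3 receptor for prostaglandin E2, a receptor that lowers cyclic AMP and contracts smooth muscle, at chr3:157566892-157645888 on the plus strand. It had 144 CPM in vSMC (135 to 153), against 35.3 CPM in aSMC, 14.5 in MG, 0.391 in FB, 0.0958 in aEC, 0.0934 in PC, 0.0708 in vEC, 0.0636 in capilEC and 0 in CP-EC. The CP-EC count of 0 allows up to 0.906 CPM. The log2 difference of vSMC from PC was 4.87, in the same direction on 4 of 4 plates. It rested on 3 of 29 cells, 1 on each of 3 plates, so the gene did not meet the size rule. Plate levels were 154, 183 and 211 CPM on those plates, and 0.715 CPM on s169s. The single positive aSMC cell held all aSMC reads, and 3 MG cells held 98.3% of the MG reads. The endothelial labels held 1 read in vEC, 3 in aEC and 11 in capilEC.

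Levels of different genes were compared per length, as CPM per kb of exon. In MG Hpgd had 323 CPM per kb and Ptgs1 210.2, above Ptgds with 14.6. In FB Ptgds had 2279 CPM per kb, above Ptges with 84.7 and Ptgis with 53.6. In vEC Ptgs2 had 65.9 CPM per kb, above Ptgis with 29.3 and Ptgds with 22.8. In aSMC Ptgis led with 118 CPM per kb, and in capilEC no member exceeded 17.4 CPM per kb.

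A further 22 genes of the pathway were followed, of which 20 exceeded 20 CPM in a label and 1, the EP2 receptor gene Ptger2, had no read. Upstream, Pla2g4a had 377 CPM in vEC, against 110 CPM in aEC, 104 in MG, 96.2 in FB, 66.5 in capilEC and 39.7 or less in the rest. In FB 99.2% of its reads were in 1 cell, the one with the most Ptges reads, and without it FB had 0.911 CPM. It was the 1 gene of the 22 that met the size rule in vEC against capilEC, with a log2 difference of 2.42, and 2.09 to 2.87 on the 4 plates. It also met it in the endothelial mean against the mural mean (184 against 14.4 CPM, log2 3.29). Mgll, monoacylglycerol lipase, which supplies arachidonic acid in brain, had 774 CPM in CP-EC, against 97.6 CPM in capilEC, and met the rule there (log2 2.92). Pla2g6, a calcium-independent phospholipase A2, had 96.1 CPM in CP-EC, where 63.8% of its reads were in 1 cell.

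**Figure D4:**
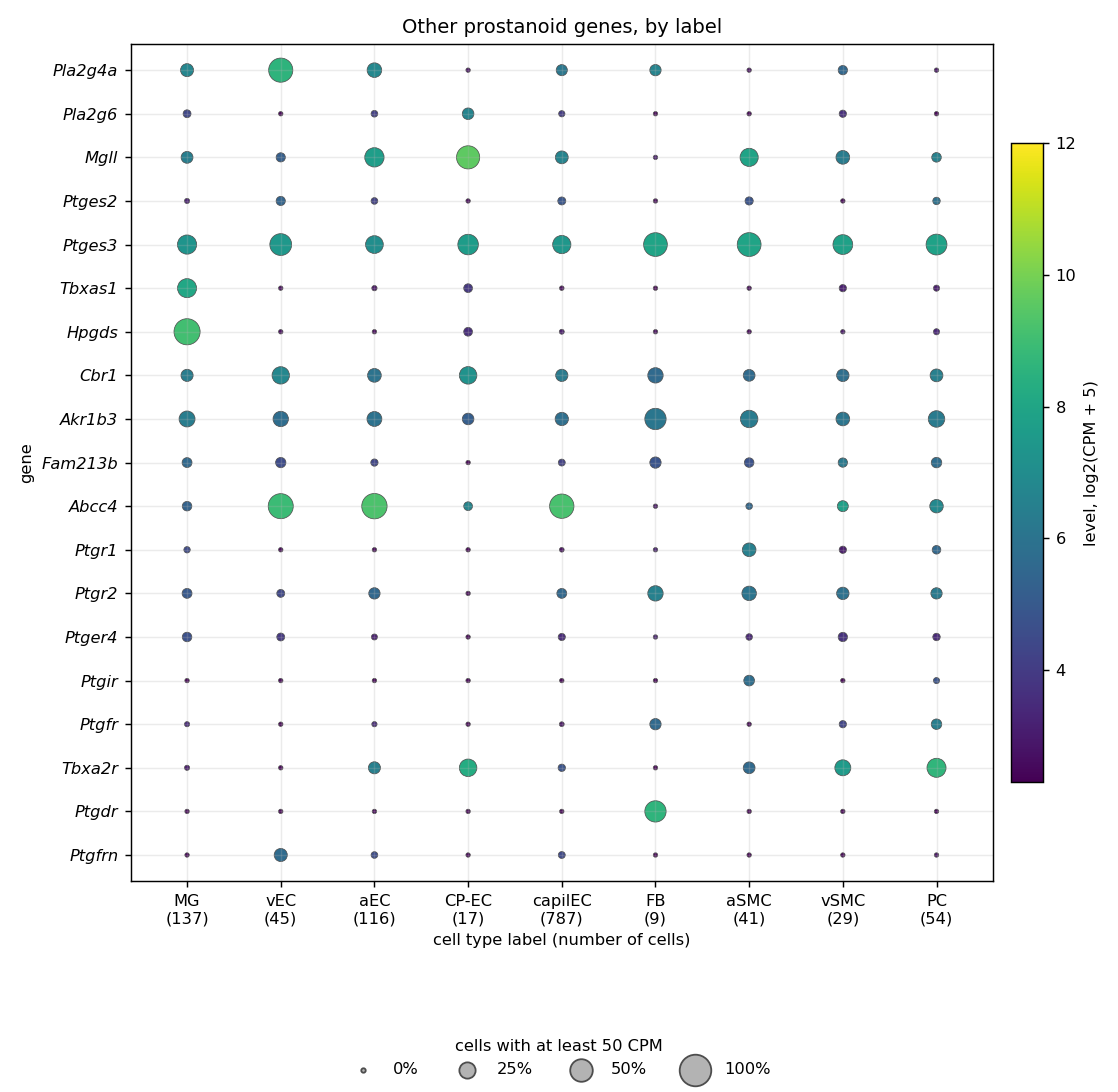
Level of other prostanoid genes over 20 CPM in a label, drawn as for the 8 genes (colour log2(CPM + 5), dot area the percentage of cells with at least 50 CPM). High levels are seen for Mgll in CP-EC (774 CPM), Hpgds and Tbxas1 in MG (535 and 264 CPM), Pla2g4a in vEC (377 CPM), Abcc4 in vEC, aEC and capilEC (479 to 601 CPM), Ptgdr in FB (385 CPM) and Tbxa2r in PC (399 CPM).

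Among the other synthases, Hpgds had 535 CPM in MG, against 6.35 CPM or less in every other label, and met the rule against the endothelial mean (log2 6.41). Tbxas1, thromboxane A synthase, had 264 CPM in MG, against 9.37 CPM or less elsewhere. Its log2 difference from the endothelial mean was 5.47, but 46.0% of MG cells had a read, so it did not meet the rule. Hpgds reached 50 CPM in 93 MG cells and Tbxas1 in 48. Tbxas1 was high in 42.7% of Ptgs1-high MG cells, against 20.8% of the others. Hpgds was high in 69.7% and 64.6% of them. Ptges3, a cytosolic prostaglandin E synthase also known as a co-chaperone, had 129 to 244 CPM in all 9 labels. Ptges2, a further E synthase, had 54.9 CPM or less in every label. Cbr1 and Akr1b3, reductases that can act on prostaglandins, had 43.8 to 144 and 30.5 to 78.8 CPM. Fam213b, a prostamide F synthase, had 69.1 CPM or less.

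Of the transport and inactivation genes, Abcc4 had 479 CPM in vEC, 601 in aEC and 576 in capilEC, against 218 CPM or less elsewhere. On plate s169s Abcc4 had 195 CPM in capilEC, against 680 to 690 CPM on the other plates. In aEC it had 420 CPM on s169s, against 518 to 765 CPM. It met the rule upward in the endothelial mean against the mural mean (552 against 123 CPM, log2 2.12). It met it downward in CP-EC against capilEC (log2 -2.43), in FB against the mural mean (-4.20) and in MG against the endothelial mean (-3.80). Ptgr1 and Ptgr2, which reduce oxidised prostaglandins further, had 84.3 CPM or less and 88.0 CPM or less. Ptgr1 was highest in aSMC and Ptgr2 in FB.

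Of the receptors, Tbxa2r, the thromboxane receptor, had 399 CPM in PC, 303 in CP-EC, 185 in vSMC, 84.4 in aEC, 44.2 in aSMC and 22.3 in capilEC, but 0.142 CPM in vEC. In PC it reached 50 CPM in 19 of 54 cells, and had 159 to 470 CPM on the 4 plates. Of these 19 cells, 15 had endothelial markers above 10% of the median of the endothelial labels. Fibroblast markers were above 10% of the FB median in 4 of them. In CP-EC the cell with the most reads had 2018 CPM, and carried 2117 CPM of oligodendrocyte markers. Ptgdr, the DP1 receptor for prostaglandin D2, had 385 CPM in FB, in 4 of 9 cells with 1843, 1121, 489 and 414 CPM, against 0.302 CPM or less in the other labels. All 4 cells were among the 8 high in Ptgds and the 5 high in Ptges. Ptgir, the prostacyclin receptor, had 49.5 CPM in aSMC and 22.6 in PC, where 1 cell held 99.6% of its reads. Of the 16 aSMC cells high in Ptgis 2 were high in Ptgir. Ptgfr, the prostaglandin F receptor, had 79.9 CPM in PC and 43.4 in FB, and Ptgfrn, a protein that binds it, 45.9 CPM in vEC. Ptger4, the EP4 receptor, was highest in MG at 21.2 CPM. Ptgdr, Ptgr2 and Ptger4 overlap opposite-strand genes by 705, 1896 and 1097 exonic bases. The sources used here do not say whether counting used strand, so reads of such overlaps cannot be assigned to either gene.

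Finally, the 3 genes most like each member were taken by Pearson's r of log2(CPM + 5) over the 9 labels, among 3160 genes. This is a description over 9 points that share plates and scaling, and genes with a peak in the same label get a high r. Ptgs1 was most like Abi3 (r = 0.98), Clk1 and Cd164, and Hpgd most like Lair1 (0.97), Fcgr2b and Lyz2, all highest in MG. Ptgs2 was most like Ube2a (0.87), Lrg1 (0.84) and Use1, all highest in vEC. Ptgds was most like Efemp1 (0.98), Lpar1 and Cntnap1, and Ptges most like Ctdsp1 (0.93), Cops7a and Nfia, all highest in FB. Ptgis was most like Hdlbp (0.90), Pex19 and Sap18. Slco2a1 was most like Snw1 (0.97), H2-Q6 and Tmem88. Ptger3 was most like Olfr558 (0.92), Asb2 and Serinc1.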

How the data were processed

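Single cells of adult mouse brain microvascular fragments were read with Smart-seq2, per the labels' protocols. The deposited table holds whole-number read counts per gene and cell, not normalized, for 46517 gene rows and 1235 cells, and a second deposited table gives each cell's type label. Every cell had at least 100021 reads. The submitters' processing notes list featureCounts, Subread 1.4.6-p5 and SAMtools 1.16.1, and both GRCm38 and GRCm39 with no role stated. The sources used here do not say how labels were assigned.

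Reads were added up within each label and scaled to CPM. A group of 3 labels was the mean of their CPM. Differences are on log2(CPM + 5), which understates those of low genes. A gene entered a comparison with over 5 CPM in either group. The size rule (at least 50 CPM, a read in at least 50% of cells on all reads, and 2 log2 units) replaced a test in all 8 comparisons, since there was 1 sample per label. Sums have exact Poisson intervals and shares exact Clopper-Pearson intervals (95%), and the limit for 0 reads was set at 3. Shares of cells with a read were also taken after thinning to 100000 reads. Plates were taken from the prefixes of cell names, which the sources used here do not explain, and plate values need at least 5 cells. The description by cells with at least 50 CPM was chosen after the values were seen. Doublets were not called by a tool, and cells carrying another class's markers were left out in an alternative.

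The genes named were the 8 members, the other prostanoid genes over 20 CPM in a label, and the 3 genes most correlated with each member. Ptger2 is named because it had no read. The result for 1 prostanoid gene over 20 CPM is not reported here. The members and lists were chosen with earlier results of these data known. Alternatives were TMM factors (edgeR 4.0.16), DESeq2 1.42.0 size factors, equal weight of cells, a pseudocount of 1 or 20 CPM, the size rule without its CPM minimum or without its share of cells, each plate left out, the cell with the largest count left out, and cells with at least 150000 reads. Python 3.11.15, NumPy 2.4.6, SciPy 1.17.1, pandas 2.3.3 and R 4.3.3 were used. Exon lengths and overlaps are from GENCODE M21 (GRCm38), and promoters from RefSeq (GRCm38.p6).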

Additional observations from a re-analysis of the deposited data

How the results depend on the processing

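The 5 members that met the size rule did so under all 14 alternatives. Dropping the CPM minimum or the share of cells only loosens the rule, and a pseudocount of 1 CPM only enlarges a difference. Those settings could therefore not remove a gene that met the rule. Their log2 differences ranged over 4.48 to 5.87 for Ptgs1 and 4.73 to 7.87 for Hpgd in MG, 3.55 to 5.16 for Ptgs2 in vEC, and 4.82 to 7.61 for Ptgds and 2.24 to 3.98 for Ptges in FB. Other counts of members moved. With no minimum share of cells, 2 met the rule in vEC against capilEC (Ptgs2 and Ptgis upward), 2 in CP-EC against capilEC (Ptgs1 upward, Ptges downward), 2 in the endothelial against the mural mean (Ptgs2 upward, Ptger3 downward), 1 in aSMC against PC (Ptgis upward) and 3 in vSMC against PC (Hpgd and Ptger3 upward, Ptgds downward). Under that setting 3 met it in MG against the endothelial mean, with Ptgs2 downward (log2 -2.40) beside Ptgs1 and Hpgd, and 3 in FB against the mural mean, with Ptger3 downward (-3.59) beside Ptgds and Ptges. In CP-EC against capilEC 1 met it (Ptgs1) without plate s483s, and 1 with cells of at least 150000 reads. In aSMC against PC 1 met it (Ptgis) without plate s169s, 1 without plate s482s and 1 without cells with markers of another class. Of 64 log2 differences of members, 17 changed sign without the cell with the largest count, 11 without cells with markers of another class, and 2 each with TMM and DESeq2 factors, none of them among the 5. The median of all genes in FB against the mural mean was -0.62, -0.67 with TMM and -0.43 with DESeq2 factors. In MG against the endothelial mean it was -0.26, 0.04 and 0.10. No paired analysis was possible because each label is 1 sample. Labels share plates, so within-plate differences are given as values, with no test. Without cells carrying another class's markers there remained 15 of 54 PC, 16 of 29 vSMC and 6 of 9 FB cells. CP-EC and FB had the fewest cells and reads.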
